A study of Homo sapiens with 6 samples.

Results

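The clustered core histone genes encode the H2A, H2B, H3 and H4 proteins that package newly made DNA. They were taken as every row of the deposited gene tables whose current symbol begins with H2AC, H2BC, H3C or H4C and a number, without linker histones and without replacement variants. The rule found 61 of 22718 rows, of which 54 were genes and 7 were pseudogenes. H2A held 17 rows, H2B 22, H3 11 and H4 11. Of the 54 genes, 46 lay in the cluster on chromosome 6, 5 lay on chromosome 1 near H2AC20 and H2BC21, 2 lay on chromosome 1 near H2AC25 and H2BC26, and 1, H4C16, lay on chromosome 12. A further 16 current symbols of these kinds, H3C4, H3C14, H3C15 and H4C14 among them, had no row and were not analysed here.

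The RNA came from libraries labelled HT1197, an established human bladder carcinoma line. The treated arm had spent 48 hours in panobinostat, which inhibits histone deacetylases, at 2 times the half-maximal inhibitory concentration. The other arm had spent the same time in vehicle, which was 1% DMSO. Each arm had 3 libraries, A, B and C, of total RNA from dishes seeded in triplicate, and p-values reflect only how far these libraries differ among themselves, which may be technical. In these libraries the defining markers of urothelium were mostly absent: 8 of 15 had rows, 1 of them, GATA3, reached 10 FPKM (the authors' reads per length and library size) in vehicle, and UPK1B and FOXA1 had 0 counts there. On a marker list of sympathetic neuroblasts, written with the abundant genes of these data known, 8 of 9 reached that level. The comparison asks how the histone transcripts differed after the inhibitor.

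Histone messages of this kind are made mainly while DNA is copied. They carry no introns, and most end in a short stem-loop instead of a poly(A) tail. The stem-loop is bound by SLBP, which the messages need for processing, translation and timely decay. H2A and H2B genes often sit head to head and share the DNA between their start sites.

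The upstream DNA of 6 genes is shown first, because H2BC7 and H2AC21 had the largest falls, H2BC1 belongs to the pair with the largest rises, H3C2 had the highest level per length, and H4C9 and H4C16 were the H4 genes with the largest fall and the only rise passing the test. Each line gives the 250 bases before the annotated start, 5′ to 3′ on the gene's strand, from RefSeq on GRCh38.p14. Capitals mark CCAAT, the octamer ATTTGCAT, TATAAA and GGTCCG on either strand.

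H2BC7: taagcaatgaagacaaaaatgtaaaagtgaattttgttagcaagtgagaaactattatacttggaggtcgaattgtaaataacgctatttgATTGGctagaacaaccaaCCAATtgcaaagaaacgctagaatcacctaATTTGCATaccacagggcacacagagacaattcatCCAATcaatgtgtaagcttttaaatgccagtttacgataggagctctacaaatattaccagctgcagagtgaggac
H2AC21: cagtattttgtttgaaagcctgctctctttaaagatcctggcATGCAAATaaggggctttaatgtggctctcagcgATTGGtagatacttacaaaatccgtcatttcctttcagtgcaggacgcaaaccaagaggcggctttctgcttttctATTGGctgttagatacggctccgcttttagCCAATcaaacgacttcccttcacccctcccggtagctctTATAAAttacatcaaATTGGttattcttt
H2BC1: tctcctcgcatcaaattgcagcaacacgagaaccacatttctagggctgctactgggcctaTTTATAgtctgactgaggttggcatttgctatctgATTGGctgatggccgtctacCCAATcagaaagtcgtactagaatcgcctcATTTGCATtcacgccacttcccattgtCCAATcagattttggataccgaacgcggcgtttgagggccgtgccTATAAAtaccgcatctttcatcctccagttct
H3C2: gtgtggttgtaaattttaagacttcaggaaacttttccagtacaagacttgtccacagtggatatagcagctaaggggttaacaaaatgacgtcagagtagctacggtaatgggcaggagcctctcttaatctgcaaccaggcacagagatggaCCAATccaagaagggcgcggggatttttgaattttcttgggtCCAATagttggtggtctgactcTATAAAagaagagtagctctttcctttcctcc
H4C9: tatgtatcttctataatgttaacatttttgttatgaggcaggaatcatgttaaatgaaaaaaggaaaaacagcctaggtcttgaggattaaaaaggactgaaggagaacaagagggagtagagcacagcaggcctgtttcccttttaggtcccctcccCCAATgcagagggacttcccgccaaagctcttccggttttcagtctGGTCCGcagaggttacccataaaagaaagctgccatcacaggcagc
H4C16: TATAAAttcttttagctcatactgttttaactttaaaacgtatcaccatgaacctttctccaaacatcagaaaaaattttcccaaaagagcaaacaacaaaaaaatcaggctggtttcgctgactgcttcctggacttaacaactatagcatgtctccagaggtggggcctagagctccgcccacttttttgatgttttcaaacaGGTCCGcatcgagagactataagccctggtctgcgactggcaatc

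These windows span chr6:26199266-26199515 on the plus strand for H2BC7, chr1:149887966-149888215 on the minus strand for H2AC21 and chr6:25726527-25726776 on the plus strand for H2BC1. They span chr6:26032100-26032349 on the minus strand for H3C2, chr6:27139032-27139281 on the plus strand for H4C9 and chr12:14771132-14771381 on the minus strand for H4C16. RefSeq entries were found for 49 of the 61 rows. CCAAT, the letters that the factor NF-Y binds, stood in the windows of all 14 H2A, all 18 H2B and all 8 H3 members with an entry and of 2 of 9 H4 members, against 32.0% of 35116 windows of all genes. The octamer, the letters that POU2F1 binds, stood in 11 of 14 H2A and 14 of 18 H2B members and in 0 of 8 H3 and 0 of 9 H4 members, against 1.63% of all windows. Windows of head-to-head partners, such as H2AC6 and H2BC4, overlap, so the same letters can be counted in both families. Among the H2A members, H2AC17 alone had the octamer on the gene's own strand. GGTCCG, letters known from H4 promoters, stood in 9 of 9 H4 members, against 1 of 14 H2A, 1 of 18 H2B and 1 of 8 H3 members and 9.43% of all windows. TATAAA stood in 34 of the 49, against 10.7% of all windows. None of these runs of letters contains another, and a match is a description of the window only. The window of H2BC1, whose level was higher after panobinostat, held CCAAT and the octamer, as did the windows of H2BC7 and H2AC21, whose levels were lower.

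The 3′ stem-loop is shown for 5 members because it is what sets these messages apart from other mRNAs. Capitals mark the stem-loop, 5′ to 3′, in GENCODE release 29 transcripts on GRCh38.

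H2AC6: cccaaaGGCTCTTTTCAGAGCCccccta
H2BC4: cccaaaGGCTCTTTTAAGAGCCacccag
H2BC7: cccaaaGGCTCTTTTAAGAGCCacccac
H2BC21: tccaaaGGCTCTTTTCAGAGCCacccac
H3C6: tccaaaGGCTCTTCTCAGAGCCaaccac

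They lie at chr6:26124663-26124690 (plus strand) for H2AC6, chr6:26123466-26123493 (minus strand) for H2BC4 and chr6:26199962-26199989 (plus strand) for H2BC7. H2BC21 has its copy at chr1:149886182-149886209 (minus strand) and H3C6 at chr6:26225590-26225617 (plus strand). One of these 3 forms of the stem-loop stood in an annotated transcript of 18 of the 54 genes and of 1 of the 7 pseudogenes, against 24 of 19684 protein-coding genes in all (0.122%). Those 24 include the 18 genes. Many of the other annotated histone transcripts hold the coding part alone and end before it. Only these exact letters were searched, so a stem-loop of another form was not counted. Of the H4 members 0 matched, although the H4C5 row, for example, was counted over 1487 bases. In 14 of these 19 rows, at least 1 transcript ran on for 100 bases or more past the stem-loop, by 1114 bases in the H2AC6 transcript shown and by 1729 in that of H2BC21.

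In all 6 libraries the members were among the most abundant transcripts of the cells. By mean FPKM, 4 of the 10 highest rows after panobinostat and 5 of the 10 highest rows in vehicle were members. Among the 50 highest rows there were 17 members after panobinostat and 28 in vehicle, and among the 100 highest there were 29 and 40. H3C2 averaged 2499 ± 404 FPKM after panobinostat, rank 3 of all rows, and 3397 ± 154 FPKM in vehicle, rank 2 (SD, n = 3 each). H3C3 averaged 1687 ± 80.2 FPKM after panobinostat, rank 6, and 2593 ± 199 FPKM in vehicle, rank 3. H3C7 stood at rank 17 after panobinostat and rank 8 in vehicle. H4C3 differed in the other direction, with rank 5 after panobinostat and rank 12 in vehicle. Member lengths behind these values ran from 312 to 5477 bases, so that a gene counted with a long 3′ extension has a low FPKM for the same number of messages.

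Of the 61 rows, 57 passed the filter on low counts and were tested, and 4 pseudogenes, H2AC10P, H2BC16P, H2BC19P and H3C9P, did not. H2AC1 and H2BC1 passed it through the panobinostat libraries alone. After panobinostat 50 of the 57 were lower at an adjusted p of 0.05 or less, where 31.5% of all 16084 genes tested were called lower. Another 4 were higher, where 33.7% of all genes were called higher; without H2AC1 and H2BC1, 2 of 55 were. The other three, H2AC12, H3C13 and H4C3, were not called. Among genes with a mean of 100 CPM (counts relative to library size, scaled by TMM) or more, a level at which 47 members lay, 48.1% of 2472 genes were called lower and 22.7% higher, against 45 and 0 of the 47 members. The median log2 fold change of the 57 rows was -0.76, against 0.01 over all genes tested. In 49 members every panobinostat library lay below every vehicle library, which held for 33.4% of all genes. The call held in each of 16 other settings for 38 of the 54 members called, and H2AC1 was too low to be tested in 1 of them, a filter at a mean of 1 CPM.

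**Figure D1:**
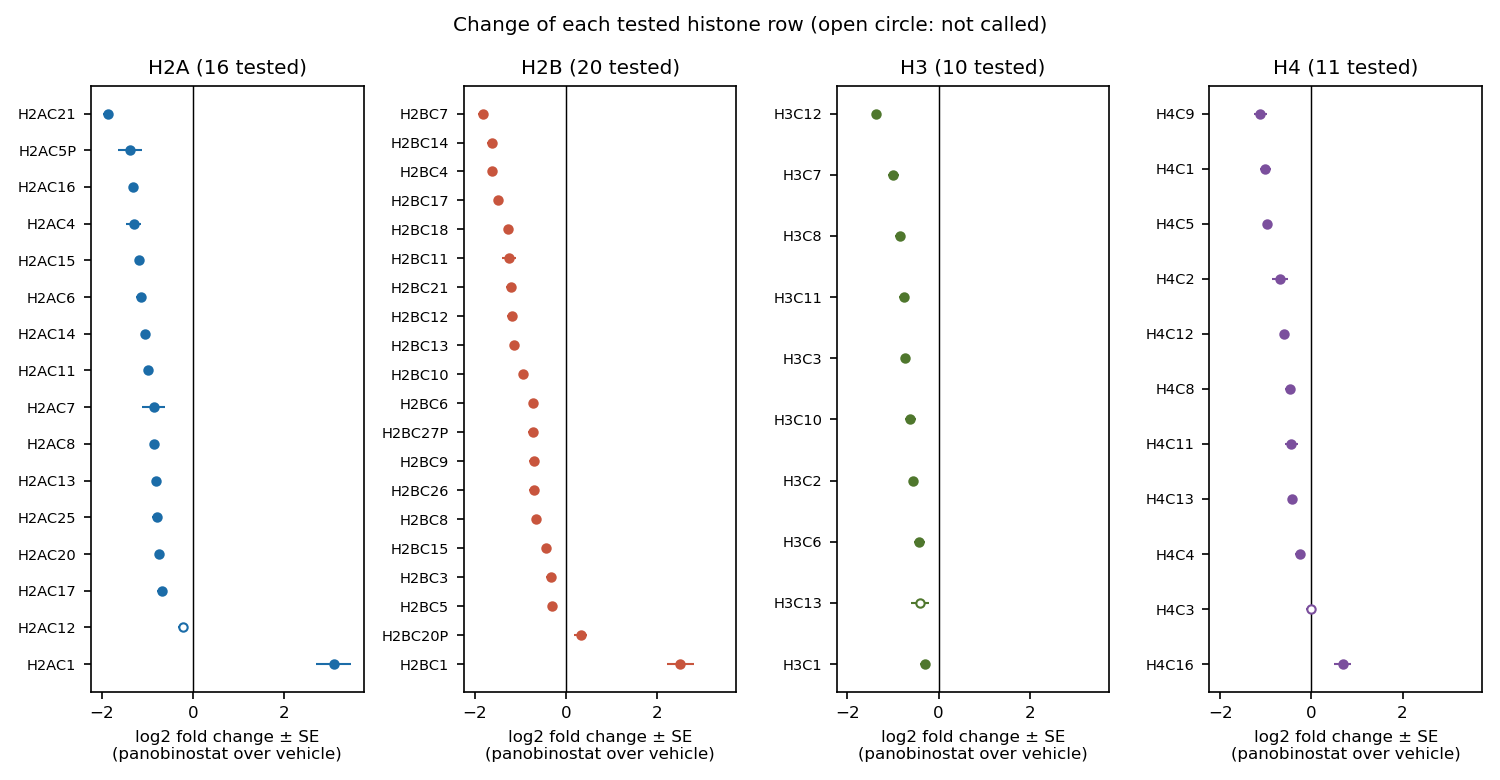
Log2 fold change (panobinostat over vehicle, x axis) of each of the 57 tested rows, in 1 panel per family, with bars for the SE and open circles for rows not called. 50 rows were called lower, down to -1.86 in H2AC21, and the 4 called higher were H2AC1, H2BC1, H2BC20P and H4C16.

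The summed level of each family was lower after panobinostat, with the smallest relative difference in H4. H2A rows summed to 2997, 3505 and 3740 CPM in panobinostat libraries A, B and C, against 6675, 6697 and 6288 CPM in vehicle libraries A, B and C. H2B rows summed to 3134, 3680 and 3994 CPM in the panobinostat libraries, against 7778, 6554 and 6695 CPM in the vehicle libraries. No panobinostat library reached the level of any vehicle library in either family. H3 rows summed to 3651, 4587 and 4911 CPM in the panobinostat libraries, against 7713, 6968 and 6701 CPM in the vehicle libraries. H4 rows summed to 2305, 2912 and 3108 CPM in the panobinostat libraries, against 4082, 3832 and 3923 CPM in the vehicle libraries. These arms did not overlap either, and panobinostat library A was the lowest of the 6 in every family.

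Panobinostat means were 52.1% of the vehicle mean in H2A, 51.4% in H2B, 61.5% in H3 and 70.3% in H4. With the counts of each family added up into 1 row before the fit, the log2 fold changes were -0.94 ± 0.09 (SE) for H2A, -0.96 ± 0.10 for H2B, -0.70 ± 0.10 for H3 and -0.51 ± 0.10 for H4, and all 4 rows passed the test, with a highest adjusted p of 0.000265. Differences between families were not tested. Together the 61 rows took 1.26% to 1.62% of all counts in the panobinostat libraries and 2.26% to 2.55% in the vehicle libraries. In bulk RNA, fewer cells that are copying DNA and fewer messages per such cell cannot be told apart.

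**Figure D2:**
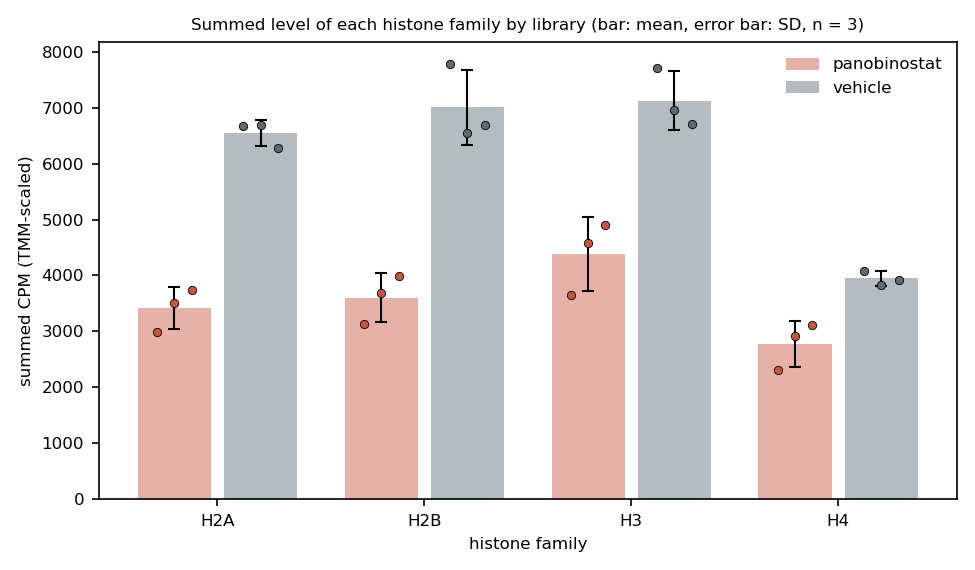
Summed CPM (y axis, from 0) of the H2A, H2B, H3 and H4 rows, with panobinostat left of vehicle in each pair. Bars are means, error bars are SDs over 3 libraries and points are libraries A, B and C in that order; in all 4 families the 3 panobinostat points lie below the 3 vehicle points.

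Among the H2A genes, whose proteins pair with H2B, 14 of 16 tested rows were lower, 1 was higher and 1 was not called, with a median log2 fold change of -0.93. H2AC21 had the largest fall of all members, with 83.9, 99.2 and 111 CPM in panobinostat libraries A, B and C and 403, 333 and 334 CPM in vehicle libraries A, B and C. Its log2 fold change was -1.86 ± 0.10 (adjusted p = 1.5e-09), and the arms lay far apart. H2AC6, one of the H2A genes known to give polyadenylated messages too, had 274, 336 and 370 CPM in the panobinostat libraries and 773, 739 and 666 CPM in the vehicle libraries. Its arms did not overlap, and its log2 fold change was -1.15 ± 0.10 (adjusted p = 1.5e-07). H2AC11 had 392, 464 and 477 CPM in the panobinostat libraries and 914, 896 and 847 CPM in the vehicle libraries. Its log2 fold change was -0.995 ± 0.083 (adjusted p = 9.5e-08), with separate arms.

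H2AC8 had 444, 537 and 577 CPM in the panobinostat libraries and 944, 959 and 899.5 CPM in the vehicle libraries. All 3 panobinostat values lay below the vehicle values, for a log2 fold change of -0.85 ± 0.09 (adjusted p = 1.2e-06). H2AC20, which lies head to head with H2BC21, had 383, 401 and 409 CPM in the panobinostat libraries and 647, 726 and 631 CPM in the vehicle libraries. It changed by -0.75 ± 0.08 on the log2 scale (adjusted p = 6.8e-07), again with no overlap. H2AC12 was not called, with 275, 375 and 397 CPM in the panobinostat libraries and 392, 401 and 428 CPM in the vehicle libraries. Panobinostat library C overlapped the vehicle range. The log2 fold change of H2AC12 was -0.22 ± 0.11 (adjusted p = 0.087), and it was called without panobinostat library C, at -0.32 (adjusted p = 0.021), and without a filter on low counts (adjusted p = 0.043).

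H2B had the most rows tested and no row that was not called: 18 of 20 were lower and 2 higher, with a median log2 fold change of -0.83. H2BC7 had 101, 101 and 122 CPM in panobinostat libraries A, B and C and 422, 378 and 353 CPM in vehicle libraries A, B and C. Its log2 fold change was -1.83 ± 0.09 (adjusted p = 5.5e-10), the largest fall of an H2B gene. H2BC14 had 87.4, 88.4 and 107 CPM in the panobinostat libraries and 336, 254 and 283 CPM in the vehicle libraries. It changed by -1.62 ± 0.11 on the log2 scale (adjusted p = 7.3e-09), and its arms were well apart. H2BC8 had 409, 506 and 541 CPM in the panobinostat libraries and 787, 747 and 763 CPM in the vehicle libraries. Its fall was smaller, at -0.66 ± 0.09 on the log2 scale (adjusted p = 1.9e-05), with no overlap of the arms.

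Some H2B genes are known to give messages with a poly(A) tail as well as messages with the stem-loop, and 4 were followed for that reason. Counts per gene do not separate these kinds of message, and the H2BC12 row was counted over 381 bases only. H2BC4 had 200.4, 196 and 193 CPM in the panobinostat libraries and 713, 562 and 527 CPM in the vehicle libraries. Its panobinostat values lay close together and far below vehicle, for a log2 fold change of -1.61 ± 0.10 (adjusted p = 4.0e-09). H2BC21 had 243, 226 and 274 CPM in the panobinostat libraries and 669, 510.5 and 541 CPM in the vehicle libraries. It fell with separate arms, by -1.21 ± 0.10 on the log2 scale (adjusted p = 1.0e-07). H2BC12 had 138, 157 and 176 CPM in the panobinostat libraries and 425, 321 and 327 CPM in the vehicle libraries. Its log2 fold change was -1.18 ± 0.11 (adjusted p = 2.9e-07), and 74.1% of its 50-base windows also stood in another histone transcript.

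H2BC5 was the least changed of these, with 422, 522 and 559 CPM in the panobinostat libraries and 640, 593 and 607 CPM in the vehicle libraries. Its arms did not overlap and its log2 fold change was -0.29 ± 0.09 (adjusted p = 0.013), but the call was lost with scaling by library size alone (adjusted p = 0.095) and with upper quartile scaling (adjusted p = 0.16). The sources used here do not say if poly(A) messages were enriched. A list of RNAs without a poly(A) tail held 15, of which 10 had rows. These summed to 57.2 to 104 CPM in the panobinostat libraries and 56.2 to 59.0 CPM in the vehicle libraries. Of these 10, 0 were called lower and 3 higher, against 31.5% and 33.7% of all genes. The 3 were RMRP, TERC and RNU4-2, named after their values were seen. The arms of RMRP and RNU4-2 overlapped, and TERC had 6, 13 and 26 counts in vehicle libraries A, B and C. The part of the 10 RNAs in the histone result was not tested.

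**Figure D3:**
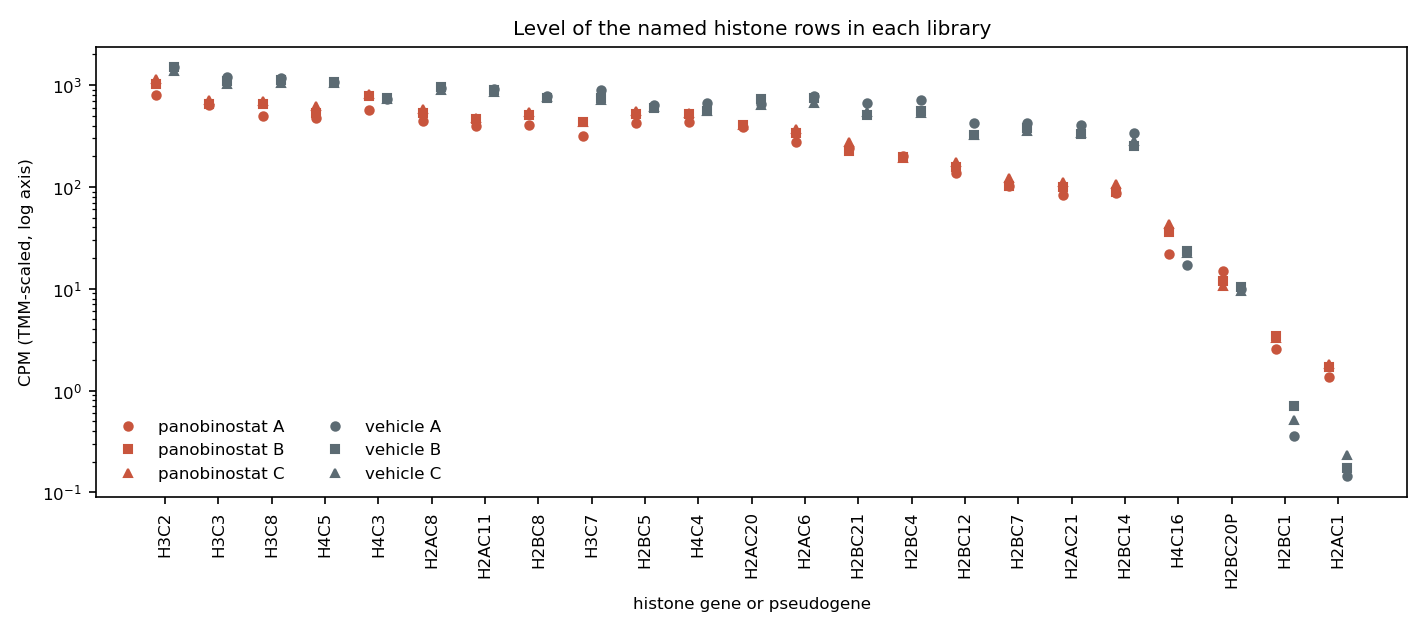
Level (TMM-scaled CPM, log y axis) of 23 rows, ordered from high to low mean CPM. They are the most abundant, those with the largest falls and rises, and those of genes known to give polyadenylated messages too. Panobinostat libraries stand left of vehicle libraries, with a marker shape for each letter. Most rows have all panobinostat markers below the vehicle markers; H4C3 overlaps, and H4C16, H2BC20P, H2BC1 and H2AC1 at the right are higher after panobinostat.

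H3 rows fell in 9 of 10 cases and rose in 0, with a median log2 fold change of -0.67. H3C2 had 807, 1030 and 1134 CPM in panobinostat libraries A, B and C and 1487, 1488 and 1384 CPM in vehicle libraries A, B and C. The arms did not overlap, and the log2 fold change was -0.55 ± 0.10 (adjusted p = 0.00025). H3C3 had 639, 655 and 711 CPM in the panobinostat libraries and 1188, 1105 and 1034 CPM in the vehicle libraries. It fell by 0.73 on the log2 scale (SE 0.08, adjusted p = 1.1e-06) with separate arms. H3C8 had 496, 653 and 692 CPM in the panobinostat libraries and 1165, 1110 and 1053 CPM in the vehicle libraries. Its log2 fold change was -0.85 ± 0.10 (adjusted p = 4.7e-06).

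H3C7 had 316, 431 and 431 CPM in the panobinostat libraries and 890, 749 and 708 CPM in the vehicle libraries. All panobinostat values lay below all vehicle values, and the log2 fold change was -0.99 ± 0.12 (adjusted p = 2.7e-06). The largest H3 fall, -1.37 ± 0.10, was that of H3C12 (adjusted p = 2.9e-08). The annotated span of H3C12 covers 350 bases of H2AC17 on the same strand, so that reads there could belong to either gene. H3C13 was not called, at -0.42 ± 0.20 (adjusted p = 0.076), with 47.5, 98.0 and 107 CPM in the panobinostat libraries and 107, 106 and 125 CPM in the vehicle libraries. Panobinostat library A lay far below the other five, and the row was called without panobinostat library B (adjusted p = 0.044) or without panobinostat library C (adjusted p = 0.011), and without a filter on low counts (adjusted p = 0.030).

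H4, whose genes all encode the same protein, had 9 of 11 rows lower, 1 higher and 1 not called, and a median log2 fold change of -0.47. H4C5 had 477, 531 and 616 CPM in panobinostat libraries A, B and C and 1083, 1073 and 1041 CPM in vehicle libraries A, B and C. The arms lay far apart, with a log2 fold change of -0.98 ± 0.09 (adjusted p = 2.1e-07). H4C9 had the largest H4 fall, at -1.13 ± 0.14 (adjusted p = 6.1e-06), with 57.5, 90.1 and 93.8 CPM in the panobinostat libraries and 154, 179 and 195 CPM in the vehicle libraries. H4C4 had 438, 523 and 532 CPM in the panobinostat libraries and 668, 558 and 561 CPM in the vehicle libraries. Its arms were close but separate, for a log2 fold change of -0.26 ± 0.09 (adjusted p = 0.024). That call was lost without panobinostat library A or without vehicle library A (adjusted p = 0.082 each) and with scaling by library size alone (adjusted p = 0.18).

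H4C3 stood out among the abundant members because its arms overlapped. It had 573, 787 and 811 CPM in the panobinostat libraries and 731, 738 and 728 CPM in the vehicle libraries. Panobinostat library A was the lowest of the 6, while panobinostat libraries B and C were the highest. The log2 fold change was -0.02 ± 0.11 (adjusted p = 0.90), and its sign turned to 0.13 without panobinostat library A and to 0.09 with scaling by library size alone.

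Rises were seen in 4 rows, each of them under 100 CPM in every library. H2AC1 and H2BC1, a head-to-head pair known as testis-specific H2A and H2B, were the largest. H2AC1 had 19, 29 and 34 counts in panobinostat libraries A, B and C, against 2, 3 and 4 counts in vehicle libraries A, B and C. These counts correspond to 1.36 to 1.82 CPM after panobinostat and 0.144 to 0.231 CPM in vehicle, where 3 counts stand for 0.173 to 0.216 CPM. The fitted log2 fold change of H2AC1 was 3.09 ± 0.38, from a vehicle level near that of 3 counts per library. H2BC1 had 36, 58 and 61 counts in the panobinostat libraries, against 5, 12 and 9 counts in the vehicle libraries. Its fitted log2 fold change was 2.52 ± 0.29. Both passed the filter only through the arm in which they were high, so their values are given as a description and no p is drawn on. Even after panobinostat both genes stayed below every other gene of their families per length, H2AC1 at 4.27 ± 0.611 FPKM and H2AC20, for example, at 1058 ± 28.6 FPKM (SD, n = 3 each).

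H4C16, the gene on chromosome 12, had 21.7, 36.0 and 42.9 CPM in the panobinostat libraries and 16.95, 23.5 and 22.4 CPM in the vehicle libraries. Panobinostat library A lay inside the vehicle range, and the log2 fold change was 0.68 ± 0.19 (adjusted p = 0.0050). The pseudogene H2BC20P had 14.8, 12.01 and 10.6 CPM in the panobinostat libraries and 9.88, 10.3 and 9.47 CPM in the vehicle libraries. Its change of 0.33 ± 0.14 on the log2 scale barely passed (adjusted p = 0.048), and it no longer passed without panobinostat library A or B or without vehicle library A, B or C (adjusted p from 0.072 to 0.21).

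The linker histone genes, which are no members but lie in the same chromosome 6 cluster, had mixed values. H1-5 had 773, 910.0 and 1055 CPM in the panobinostat libraries and 1846, 1758 and 1713 CPM in the vehicle libraries. It fell by 0.96 on the log2 scale (SE 0.10, adjusted p = 7.4e-07). H1-4 also fell, by 0.43 (SE 0.12, adjusted p = 0.0056), while H1-2 and H1-3 were not called, at 0.23 ± 0.12 and 0.16 ± 0.12. H1-6, the testis-specific linker histone, rose to 85.6, 86.9 and 83.4 CPM in the panobinostat libraries, against 2.74, 4.04 and 2.95 CPM in the vehicle libraries, a log2 fold change of 4.70 ± 0.12 (adjusted p = 8.5e-13). H1-1 had 52 counts over the panobinostat libraries and 2 over the vehicle libraries.

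Within head-to-head pairs the H2B gene mostly had the lower ratio to vehicle. By annotated spans there were 11 such pairs, with 218 to 330 bases between the genes, and both genes were lower in 9 of them. H2AC15 and H2BC15 were not counted, because the annotated span of H2BC15 covers H2AC15, although their RefSeq starts lie head to head. There the H2B gene fell less, with log2 fold changes of -1.18 ± 0.09 for H2AC15 and -0.44 ± 0.09 for H2BC15. The ratio of H2B to H2A counts cancels library size. For H2AC12 and H2BC12 it was 0.503, 0.420 and 0.442 in panobinostat libraries A, B and C and 1.08, 0.799 and 0.763 in vehicle libraries A, B and C. The arms were apart, and H2BC12 fell by 1.18 on the log2 scale while its partner was not called. For H2AC17 and H2BC17 the ratio was 1.45, 1.39 and 1.33 in the panobinostat libraries and 2.66, 2.05 and 2.55 in the vehicle libraries. The ratio was higher after panobinostat without overlap for H2AC8 and H2BC8, where it was 0.922, 0.943 and 0.938 in the panobinostat libraries and 0.834, 0.779 and 0.848 in the vehicle libraries.

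The mean log ratio was lower after panobinostat in 9 of 11 pairs. Every panobinostat ratio lay below every vehicle ratio in 7 pairs and above in 1, and the ratios overlapped in 3. For single genes, 33.4% of all genes tested had arms apart with panobinostat below and 35.5% with panobinostat above. The share for ratios of other gene pairs was not computed, so the count of pairs is a description only. An exact two-sided permutation test on 3 against 3 libraries can give no p under 0.1, so no pair could pass the threshold. Apart from H2AC1 with H2BC1, each pair without overlap had this p. H2AC1 with H2BC1 is among the 9 and the 7 pairs, but both of its genes rose, from vehicle counts of 12 or fewer per library. No p is drawn on for it. H2AC7 and H2BC7 had a ratio of 4.45 in panobinostat library A, with 1.81 and 1.75 in panobinostat libraries B and C, against 5.42, 3.86 and 3.69 in the vehicle libraries, so 1 library decided that overlap. Other histone transcripts share over 50% of the 50-base windows of H2AC13, H2AC14, H2AC17 and H2BC12 and 30.5% of those of H2AC20.

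**Figure D4:**
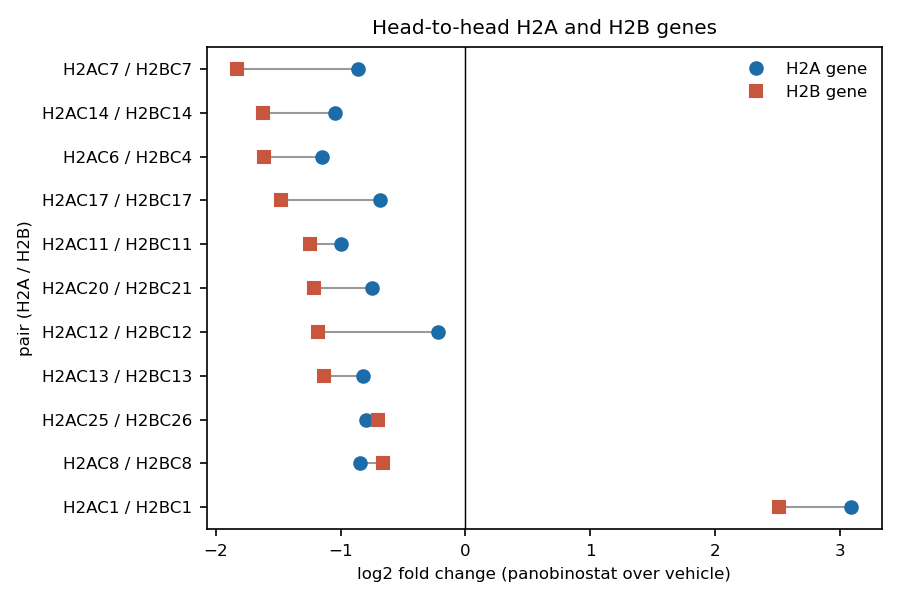
Log2 fold change (panobinostat over vehicle, x axis) of the H2A gene (circle) and the H2B gene (square) of each of the 11 head-to-head pairs by annotated spans. H2AC1 with H2BC1 lies right of 0 and the other pairs lie left of it; H2AC12, which was not called, lies nearest to 0.

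Reads from near-identical copies could not be assigned by sequence alone. Over the 57 tested rows the median share of 50-base windows also found in another histone transcript was 0.591%, and 24 rows had none. In 7 rows the share was over 50%, reaching 100% in H4C12. H2AC17, at 86.3%, is among the 7, but 350 of its bases lie in the annotated span of H3C12 on the same strand. Its shared windows therefore need not come from a copy elsewhere. Without those 7 rows, 44 of 50 were lower and 4 higher, and the median log2 fold change was -0.78. The annotated span of H2BC15 also covers all 393 bases of H2AC16 on the same strand, which makes the split between those rows uncertain.

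Genes that switch on histone transcription and cut the 3′ end fell more often than not. Of 18 on the list, 14 were lower and 0 higher, where 31.5% of all genes were lower and 33.7% higher, with a median log2 fold change of -0.36 against 0.01 over all genes. NFYC, a subunit of the CCAAT-binding factor NF-Y, had 39.5, 35.9 and 39.8 CPM in the panobinostat libraries and 87.1, 69.7 and 70.2 CPM in the vehicle libraries. It fell by 0.98 on the log2 scale (SE 0.10, adjusted p = 4.9e-07), and NFYA, another subunit, fell by 0.51 (SE 0.08). LSM11, a protein of the U7 particle that directs the cut, fell by 0.56 (SE 0.08, adjusted p = 1.7e-05). The cleavage factors SYMPK and CSTF2 fell by 0.47 and 0.77, SRRT, which links the cap to processing, by 0.80, and CASP8AP2, which is needed for histone transcription, by 0.38.

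SLBP itself was not called, with 80.7, 75.2 and 69.2 CPM in the panobinostat libraries and 77.5, 81.1 and 84.7 CPM in the vehicle libraries. Its arms overlapped, and its log2 fold change was -0.11 ± 0.08 (adjusted p = 0.21). NPAT, the coactivator of histone genes that cyclin E and CDK2 act on, had 54.2, 47.8 and 41.8 CPM in the panobinostat libraries and 49.1, 50.7 and 42.6 CPM in the vehicle libraries. It overlapped as well, at 0.01 ± 0.10 (adjusted p = 0.94). HINFP, which binds the H4 promoter element and was picked after its values were seen, was called lower at -0.28 ± 0.11 (adjusted p = 0.030). That call was lost without panobinostat library A or C and without vehicle library A or C (adjusted p from 0.060 to 0.080). It was also lost with scaling by library size alone (adjusted p = 0.18) and with upper quartile scaling (adjusted p = 0.26). Neither DESeq2 (adjusted p = 0.055) nor limma in any setting (adjusted p from 0.28 to 0.34) called it.

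Factors for translation and decay of histone messages had 7 of 16 genes lower and 5 higher, near the 31.5% and 33.7% of all genes, so the counts set these factors apart in neither direction. EXOSC10, a nuclease of the RNA exosome, fell by 0.73 (SE 0.09), and UPF1, a helicase that acts in histone message decay, by 0.59 (SE 0.07). LSM3 and PNRC2 fell by 0.56 and 0.45. MIF4GD, which joins SLBP to the translation machinery, had 19.9, 21.8 and 21.7 CPM in the panobinostat libraries and 14.5, 10.9 and 11.2 CPM in the vehicle libraries. It rose by 0.80 ± 0.12 (adjusted p = 3.3e-05), and LSM4, a ring protein of the decay machinery, rose by 0.54 ± 0.09. The other three, picked after their values were seen, were ERI1, TUT4 and TUT7, with log2 fold changes of 0.20, 0.18 and 0.25, and each was lost in some fits without 1 library.

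Histone chaperones and assembly factors were lower in 14 of 20 cases and higher in 2, against 31.5% and 33.7% of all genes. NASP, which holds the soluble store of H3 and H4, had 193, 186 and 215 CPM in the panobinostat libraries and 362, 482 and 479 CPM in the vehicle libraries. The arms were far apart, and the log2 fold change was -1.16 ± 0.10 (adjusted p = 1.7e-07). CHAF1B and CHAF1A, subunits of the complex that places H3 and H4 on new DNA, fell by 0.84 (SE 0.09) and 0.58 (SE 0.07). SUPT16H and SSRP1, which form the FACT complex, fell by 0.66 and 0.55, and MCM2, a helicase subunit that binds H3 and H4, by 0.58. ASF1B, a chaperone that passes H3 and H4 on, was instead higher, with 65.7, 70.3 and 67.1 CPM in the panobinostat libraries and 51.1, 51.0 and 53.0 CPM in the vehicle libraries. It rose by 0.39 ± 0.07 (adjusted p = 0.00027), and ASF1A, named after its values were seen, rose by 0.53 ± 0.07.

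Over these 3 lists 35 of 54 genes were lower and 7 higher, against 31.5% and 33.7% of all genes and, at a mean of 100 CPM or more, 48.1% and 22.7%. Many of the 54, NPAT and SLBP among them, had means under 100 CPM. Those at 100 CPM or more were not counted apart. The count of higher genes was 4 without panobinostat library B or without vehicle library A. The count of lower genes was 23 with upper quartile scaling, which puts the median of all genes at 0.15 in place of 0.01. That count was 25 with scaling by library size alone and 24 by limma in each setting, so 35 depends on the processing.

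**Figure D5:**
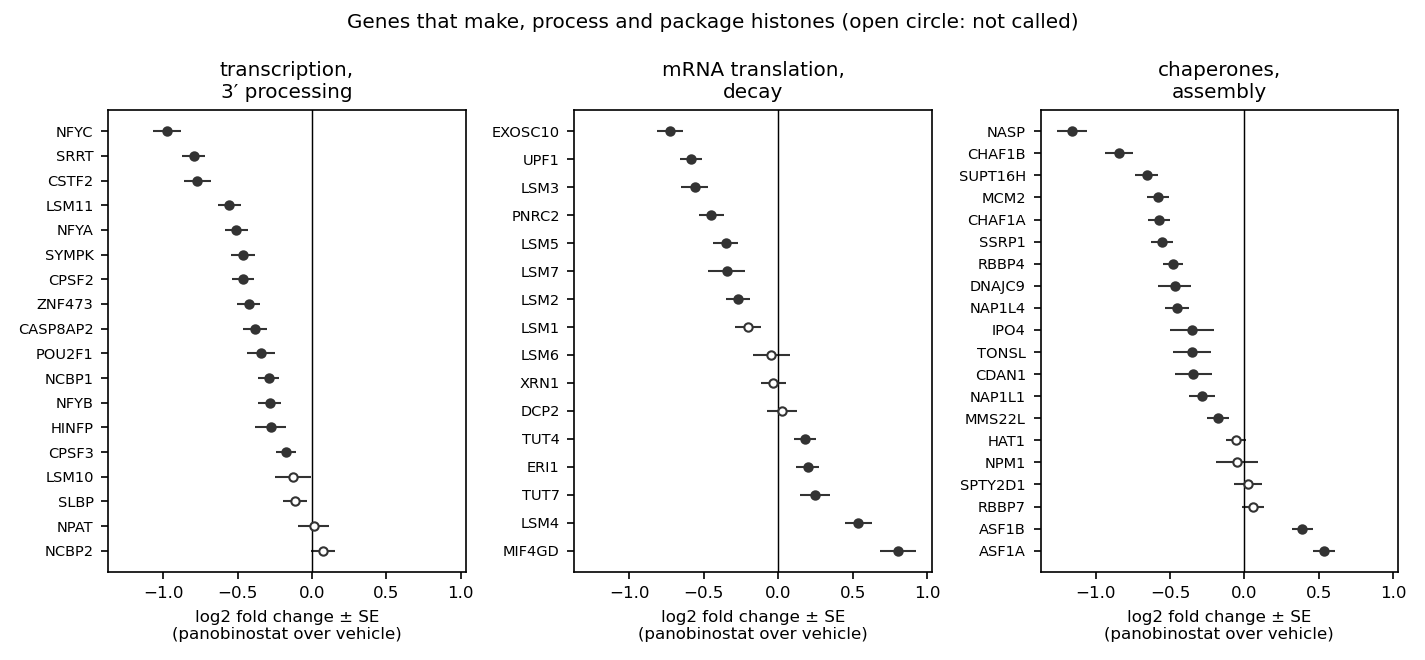
Log2 fold change (panobinostat over vehicle, x axis) with SE of the genes for histone transcription and 3′ processing, message translation and decay, and chaperones and assembly, with open circles for genes not called. 14 of 18, 7 of 16 and 14 of 20 were called lower; SLBP and NPAT are open circles near 0.

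Genes for entry into S phase and DNA synthesis, on a list of 20 written with earlier results of these data known, were lower in 17 cases and higher in 0, against 31.5% and 33.7% of all genes, with a median log2 fold change of -0.64. TYMS and MCM5 fell by 1.40 and 1.34 on the log2 scale, and CDC25A and MCM7 by 1.13 each. The part of these genes in the histone result was not tested.

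Replacement histones, which are made outside S phase too, had 2 of 8 tested genes lower and 3 higher, near the 31.5% and 33.7% of all genes. H3-3B, a source of the H3.3 protein, had 947, 990 and 1010 CPM in the panobinostat libraries and 964, 932 and 871 CPM in the vehicle libraries. It was not called, at 0.09 ± 0.07 (adjusted p = 0.28), and neither were H3-3A, at -0.31 ± 0.18, and H2AZ1, at -0.15 ± 0.15. The H3-3A row was far lower than that of H3-3B, with means of 7.19 CPM after panobinostat and 9.06 CPM in vehicle. H2AX rose by 0.36 ± 0.07 (adjusted p = 0.00051), and H2AJ was too low to be tested. The other four calls, named after their values were seen, were falls in MACROH2A2 (log2 fold change -2.61) and MACROH2A1 (-0.98) and rises in H2AZ2 (0.65) and CENPA (0.51). Whether the members and the replacement histones differ was not tested.

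Total counts per library ran from 13417898 to 18186087. Spearman's rho over genes was 0.993 to 0.997 within arms and 0.941 to 0.950 between them. Panobinostat library A was the lowest panobinostat library in 50 of the 57 tested members, and vehicle library A was the highest vehicle library in 37. Leaving out any 1 library gave 47 to 52 members lower and 3 or 4 higher.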

How the data were processed

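The deposited counts per gene came from featureCounts, version 1.5.0-p3 per the file headers. The submitters' processing notes give 1.5.1, with Subread, Novoalign 2.8 and hg38. The header's command counts on 1 strand (its option 2), against Ensembl release 84, by largest overlap, and without the option for multi-mapping reads. It names 9 alignment files, and 6 columns were used. FPKM values are the authors' deposited ones, proportional to counts per length and column total.

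Symbols came from the name tables on GRCh38, with GENCODE release 29 coordinates, which differ in release from the counting. The main test was the quasi-likelihood test of edgeR 4.0.16 (R 4.3.3) for panobinostat minus vehicle on 6 libraries without covariates, after TMM scaling and filterByExpr at a count of 10 and a total of 15, called at 0.05 after Benjamini-Hochberg adjustment over 16084 genes. CPM is TMM-scaled; the SE is the log2 fold change over the square root of F. The steps were tested on simulated counts. Alternatives used DESeq2 1.42.0 and limma 3.58.1 on log2(FPKM + pseudocount), other scalings and filters, a replicate block and each library left out.

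The members and lists, and the promoter motifs, were chosen with earlier results of these data known. Rows named singly were the 12 with the highest mean CPM, the 4 largest falls and the 4 largest rises past the threshold. Also named were 5 rows of genes known to give polyadenylated messages too. Partner genes were up to 6 per list past the threshold with the largest change, plus SLBP, NPAT, CASP8AP2, LSM11, NASP, CHAF1B and ASF1B. Up to 4 of the S phase list were named. H2AC12, H3C12, H3C13 and H4C9 among the members, and the linker histones, were named after their values were seen. The 3-count floor covers counting error only.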

Additional observations from a re-analysis of the deposited data

How the results depend on the processing

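The count of histone rows called lower was within 1.5 times 50 in every alternative that kept rows apart: 49 by DESeq2, 46 with library size alone, 45 with upper quartile scaling, 43 by limma with a filter and 37 without it. With members summed per family it was 4 of 4. Rises numbered 2 by limma without a filter, against 4. The letters A to C were not shown to mark a shared batch (same-letter correlations of deviations 0.103, -0.035 and 0.158), and with a replicate block 52 rows were lower and 4 higher, the added calls being H2AC12 (adjusted p = 0.030) and H3C13 (adjusted p = 0.013). Leaving out 1 library gave 47 to 52 lower and 3 to 4 higher rows, 30 to 33 lower and 4 to 6 higher partner genes, and family ratios (panobinostat over vehicle) of 0.496 to 0.553 for H2A, 0.486 to 0.547 for H2B, 0.578 to 0.666 for H3, 0.661 to 0.763 for H4 and 0.543 to 0.618 in all. The H4 ratio was 0.819 from summed FPKM, against 0.703 from CPM. Partner genes called lower numbered 23 with upper quartile scaling, 25 with library size alone and 24 by limma in each of 3 settings, against 35. Those called higher numbered 4 without a filter, against 7. H4C3, at -0.02, turned to 0.0946 with library size alone, 0.122 with upper quartile scaling, 0.0147 with a filter at 1 CPM and 0.0773 by limma in each of 3 settings, and ran from -0.103 to 0.127 as 1 library was left out, the highest without panobinostat library A. Library size alone put the median of all genes at 0.13 and upper quartile scaling at 0.15, against 0.01; the cause was not tested. H2BC3, H3C1 and H4C4 lost their calls without panobinostat library A or without vehicle library A, and H4C11 without vehicle library B. The number of libraries and, for H2AC1 and H2BC1, vehicle counts of 12 or fewer per library limit the precision.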
